A study of Homo sapiens with 6 samples.

Results

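The serpins are a family of protease inhibitors and related proteins that share one fold. Their genes were taken as all rows of the deposited count table whose symbol is SERPIN followed by a clade letter from A to I and a number, which gave 34 of 55882 genes in 9 clades, of which 33 are described here. Another 4 rows starting with SERPIN are named as pseudogenes and were left out. The groups compared were p53 KO DIvA cells given 300 nM 4-hydroxytamoxifen (4-OHT) for 5 h, with 3 libraries, and p53 WT DIvA cells given the same, also with 3 libraries. DIvA cells derive from the human osteosarcoma line U2OS and carry AsiSI, a restriction enzyme, joined to part of the oestrogen receptor, so that 4-OHT brings it into the nucleus to cut DNA. All 6 libraries came from cut cells, and untreated cells were not analysed here. The labels do not say how many knockout clones were used or whether replicates were separate cultures, so p-values measure only the spread between these samples.

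An inhibitory serpin offers an exposed loop as bait. The protease that cuts it is dragged along as the loop inserts into the body of the serpin, and stays trapped by a covalent bond. The clade E serpin SERPINE2 restrains thrombin and urokinase at the cell surface, most clade A serpins are plasma proteins made by liver, clade B serpins lack a classical signal peptide and act mainly inside cells, and a few members such as SERPINH1 no longer inhibit proteases.

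Total counts ranged from 20393909 to 72621732 in p53 KO libraries and from 24347609 to 79767519 in p53 WT libraries. CDKN1A, the p53-induced cell cycle inhibitor, averaged 45.8 ± 3.68 CPM, counts scaled to the library total, in p53 KO cells and 542 ± 27.0 CPM in p53 WT cells (SD, n = 3 each). Of 7 bone and mesenchymal markers COL1A2 was under 1 CPM in both groups, COL1A1 was higher, and VIM, ALPL, SPARC and RUNX2 were lower in p53 KO cells, with sums of 3311 to 3746 CPM in p53 KO libraries and 5036 to 5666 CPM in p53 WT libraries. All 8 hepatocyte markers were under 1 CPM, with summed levels of 0.351 to 1.00 CPM in p53 KO libraries and 0.357 to 0.877 CPM in p53 WT libraries. Of 8 epithelial and keratinocyte markers TP63 was higher and SFN and IVL were lower in p53 KO cells, and their summed level, mostly SFN, a p53 target itself, was 197 to 264 CPM in p53 KO libraries and 539 to 683 CPM in p53 WT libraries. Of 5 neuronal markers MAP2 and STMN2 were lower and none was higher, with sums of 13.3 to 24.6 CPM in p53 KO libraries and 26.5 to 28.3 CPM in p53 WT libraries. Leukocyte markers summed to at most 3.11 CPM and endothelial markers to at most 5.01 CPM in any library. The part of these marker differences in the serpin results was not tested, and in bulk RNA fewer cells of a kind and less RNA per cell cannot be told apart.

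Summed over the 33 genes the serpin level was 449.9, 502 and 521 CPM in p53 KO libraries, against 541, 539.9 and 516 CPM in p53 WT libraries, so the groups overlapped. Its makeup differed between them. Clade H, which is SERPINH1, summed to 333 ± 36.1 CPM in p53 KO cells and 217 ± 10.9 CPM in p53 WT cells (SD, n = 3 each). Clade E, here SERPINE2 and SERPINE3, summed to 28.7 ± 1.54 CPM in p53 KO cells and 135 ± 9.61 CPM in p53 WT cells (SD, n = 3 each). Clades A and B were lower as well, with 8.97 ± 1.57 and 90.6 ± 3.91 CPM in p53 KO cells, against 27.5 ± 1.26 and 139 ± 2.74 CPM in p53 WT cells (SD, n = 3 each). SERPINH1 gave 65.0%, 68.7% and 69.3% of the counts of these genes in p53 KO libraries and 40.6%, 42.0% and 39.8% in p53 WT libraries. SERPINE2 gave 5.90%, 5.81% and 5.58% in p53 KO libraries and 26.8%, 24.5% and 24.4% in p53 WT libraries. The shares of both genes do not overlap between groups.

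**Figure D1:**
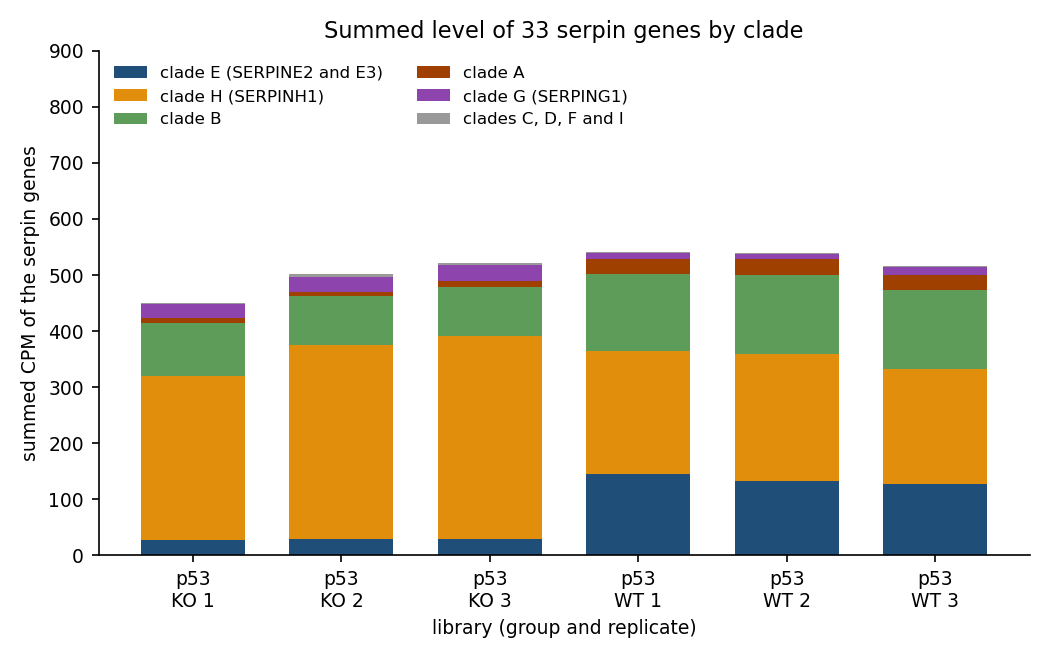
Summed CPM of 33 serpin genes in each library, stacked by clade, with p53 KO libraries left of p53 WT libraries. The clade H block averages 333 CPM in p53 KO libraries and 217 CPM in p53 WT libraries, and the clade E block 28.7 CPM in p53 KO libraries and 135 CPM in p53 WT libraries.

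Of the 33 genes, 16 passed the filter on low counts and were tested. Of these 16, edgeR's quasi-likelihood test called 5 lower (SERPINE2, SERPINA1, SERPINA12, SERPINB7 and SERPINB8) and 2 higher (SERPING1 and SERPINH1) in p53 KO cells at an adjusted p under 0.05. Over all 22352 genes tested it called 26.5%, with 14.4% lower and 12.1% higher. The groups did not overlap for 9 of the 16 serpins, beside 40.8% of all genes tested. The median log2 fold change was -0.36 over the serpins tested and 0.0052 over all genes tested. Since 4 serpins (SERPINA3, SERPINA12, SERPINB2 and SERPINF2) reached the filter's level in all p53 WT libraries but not in all p53 KO libraries, and SERPINE3 the other way round, these counts describe the genes that passed and not the whole family.

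**Figure D2:**
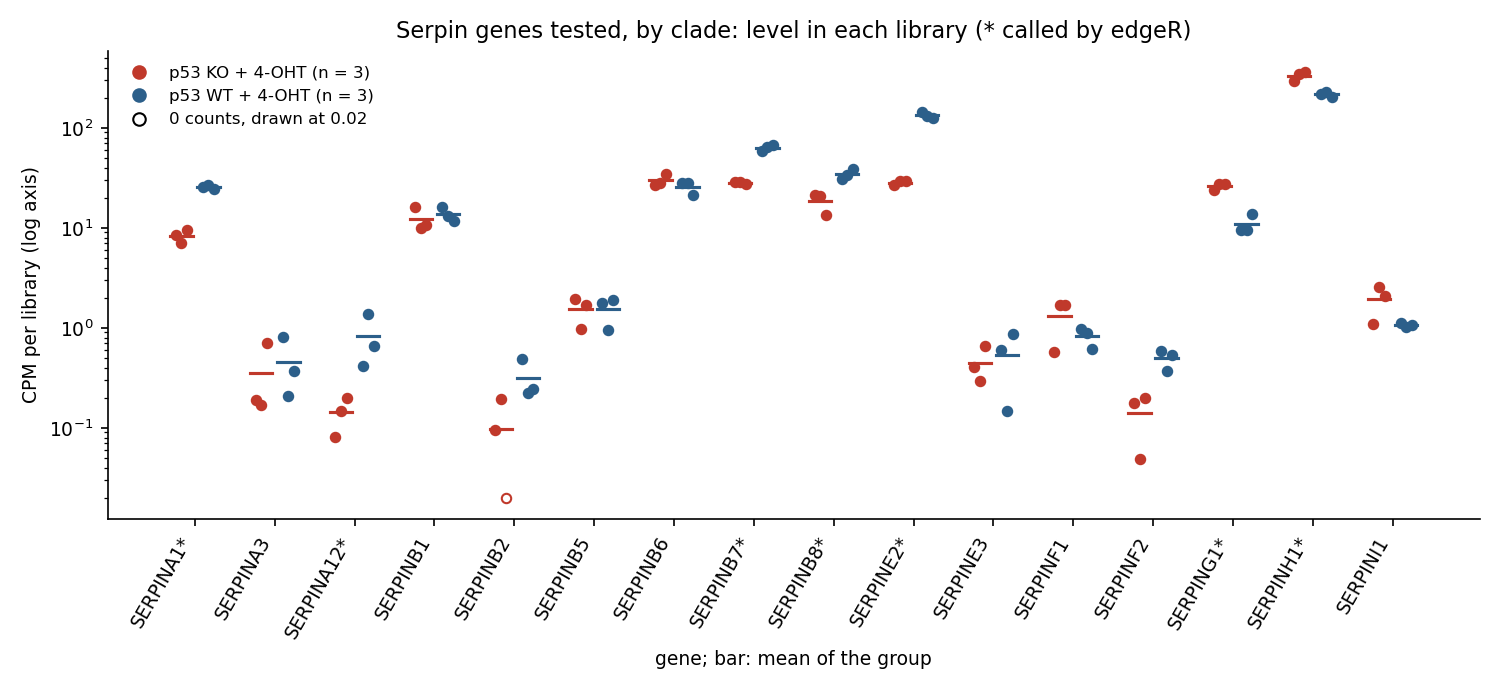
CPM on a log axis of the 16 serpins tested, in order of clade, with one point per library, p53 KO left of p53 WT, and a bar at each group's mean. SERPINE2, SERPINA1, SERPINB7 and SERPINB8 have all p53 KO points below all p53 WT points, as do SERPINA12, SERPINB2 and SERPINF2 at low counts. SERPING1 and SERPINH1 have all p53 KO points above, and the genes under 1 CPM scatter widely.

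Of the called serpins above 1 CPM, SERPINE2 had the largest fold change. SERPINE2, or protease nexin-1, inhibits thrombin and urokinase and binds heparan sulphate on the cell surface. It had 26.5, 29.2 and 29.1 CPM in p53 KO libraries, against 145, 132 and 126 CPM in p53 WT libraries. The groups were well apart, and the p53 KO libraries were close to each other. SERPINE2 was 4.76-fold lower in p53 KO cells, with a log2 fold change of -2.25 (SE 0.11, edgeR adjusted p = 9.41e-09). SERPINE3, whose inhibitory role is not established, stayed low at 0.405, 0.293 and 0.652 CPM in p53 KO libraries and 0.597, 0.149 and 0.863 CPM in p53 WT libraries, ranges that overlap (edgeR adjusted p = 0.868).

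Levels of different genes can be compared only per length. Per kilobase of merged exons in GENCODE 29, which may not be the annotation the authors counted on, SERPINH1 had 60.1, 70.9 and 74.3 CPM per kb in p53 KO libraries and 45.2, 46.6 and 42.2 CPM per kb in p53 WT libraries. SERPINE2 had 8.43, 9.26 and 9.25 CPM per kb in p53 KO libraries and 46.0, 41.9 and 40.0 CPM per kb in p53 WT libraries. Per length SERPINH1 thus stood well above SERPINE2 in p53 KO cells, and both genes overlapped across p53 WT libraries. SERPINE2 was below SERPINB7 (11.6 to 12.1 CPM per kb) and SERPING1 (9.64 to 11.1 CPM per kb) in p53 KO libraries, but above SERPINB7 (24.7 to 28.5 CPM per kb) and SERPING1 (3.82 to 5.51 CPM per kb) in p53 WT libraries.

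Clade B has 13 genes in the table, 10 in a cluster on chromosome 18 and 3 on chromosome 6. Of the 4 tested genes on chromosome 18, SERPINB7 and SERPINB8 were lower and SERPINB5 and SERPINB2 were not called, and neither of the 2 tested genes on chromosome 6 was called. SERPINB7, or megsin, is known from skin, where its loss causes a keratosis of palms and soles. It had 28.7, 28.4 and 27.4 CPM in p53 KO libraries, against 58.4, 63.9 and 67.4 CPM in p53 WT libraries. SERPINB7 was 2.24-fold lower in p53 KO cells, with a log2 fold change of -1.16 (SE 0.11, edgeR adjusted p = 3.69e-06). SERPINB8, an intracellular serpin that can inhibit furin, had 21.3, 20.6 and 13.6 CPM in p53 KO libraries, against 31.1, 34.02 and 38.8 CPM in p53 WT libraries. Its groups did not overlap, and its log2 fold change was -0.89 (SE 0.17, edgeR adjusted p = 0.00117). The call was lost (-0.35, edgeR adjusted p = 0.167) with the median change of the 50 nearest protein-coding genes, called the local median below, taken off.

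SERPINB5, or maspin, described as a tumour suppressor in epithelium and as a p53 target there, had 1.95, 0.977 and 1.70 CPM in p53 KO libraries, against 1.75, 0.952 and 1.89 CPM in p53 WT libraries. The groups covered nearly the same range, and its log2 fold change was 0.022 (SE 0.43, edgeR adjusted p = 0.981). SERPINB2, or PAI-2, a urokinase inhibitor, had 15 counts over the p53 KO libraries and 59 over the p53 WT libraries, and its log2 fold change of -1.60 was not called (SE 1.11, edgeR adjusted p = 0.336). On chromosome 6, SERPINB1, which inhibits neutrophil granule proteases, had 9.86 to 16.3 CPM in p53 KO libraries and 11.8 to 16.3 CPM in p53 WT libraries. SERPINB6, an inhibitor of cathepsin G, had 26.7 to 34.8 CPM in p53 KO libraries and 21.2 to 27.8 CPM in p53 WT libraries. The groups of both genes overlapped, with adjusted p = 0.654 for SERPINB1 and adjusted p = 0.342 for SERPINB6 by edgeR.

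The stretches before the starts of SERPINB7 and SERPINB8 are shown because both genes were lower and their promoters share a motif. SERPINB2, which lies between them and also holds the motif, was not called. Both are on the plus strand of GRCh38.p14, from RefSeq, and cover the 250 bases before a start, at chr18:63775168-63775417 for SERPINB7, one of its 3 listed starts, and at chr18:63969831-63970080 for SERPINB8. Capitals mark TGANTCA, the AP-1 motif, on either strand. Of the 3 listed SERPINB7 promoters, the first by position holds no TGANTCA. Which starts these cells used is not known from the counts.

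SERPINB7: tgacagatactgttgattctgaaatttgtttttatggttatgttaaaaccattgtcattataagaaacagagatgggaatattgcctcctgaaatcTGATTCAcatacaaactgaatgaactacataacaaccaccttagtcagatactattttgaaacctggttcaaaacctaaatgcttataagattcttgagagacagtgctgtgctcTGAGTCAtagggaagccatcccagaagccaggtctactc

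SERPINB8: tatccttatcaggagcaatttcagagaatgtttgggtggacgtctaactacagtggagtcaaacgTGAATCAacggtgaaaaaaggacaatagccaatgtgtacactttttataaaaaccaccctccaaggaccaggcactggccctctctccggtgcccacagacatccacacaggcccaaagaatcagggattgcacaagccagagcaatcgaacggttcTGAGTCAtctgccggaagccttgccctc

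Each stretch holds the motif at 2 places, and the nearer one reads TGAGTCA in both, 39 bases before the start in SERPINB7 and 28 bases before it in SERPINB8. Of 27 serpins with a listed promoter of 300 bases, 8 held TGANTCA, and 6 of those are among the 8 with a promoter on chromosome 18 (SERPINB2, SERPINB5, SERPINB7, SERPINB8, SERPINB12 and SERPINB13). Over all genes with a listed promoter, 9.37% held it. Of these 6 genes SERPINB7 and SERPINB8 were called lower, SERPINB2 and SERPINB5 were not called, and SERPINB12 and SERPINB13 had at most 5 counts in all, so that the motif was present in genes with different outcomes. A match is a description of the letters and not evidence of binding.

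Clade A was low except for SERPINA1. SERPINA1 encodes alpha-1 antitrypsin, the plasma inhibitor of neutrophil elastase, made mostly in liver. It had 8.44, 6.98 and 9.52 CPM in p53 KO libraries, against 25.6, 26.6 and 24.7 CPM in p53 WT libraries. SERPINA1 was 3.10-fold lower in p53 KO cells with groups that did not overlap, at a log2 fold change of -1.63 (SE 0.16, edgeR adjusted p = 4.66e-06), or -0.65 with the local median taken off (edgeR adjusted p = 0.00876). All 8 hepatocyte markers averaged under 1 CPM in both groups. Of these only APOA1 was tested, and it was not called (log2 fold change 1.05, SE 1.24, edgeR adjusted p = 0.5997). SERPINA12, or vaspin, an inhibitor of the kallikrein KLK7 described in fat tissue, had 6, 6 and 4 counts in p53 KO libraries and 33, 93 and 16 counts in p53 WT libraries. Its log2 fold change of -2.60 (SE 0.83, edgeR adjusted p = 0.0324) rested on these few counts. The call was lost with the local median taken off (-1.62, edgeR adjusted p = 0.204), without p53 KO replicates 1 or 2 (edgeR adjusted p = 0.082 and 0.0582) and without p53 WT replicates 2 or 3 (edgeR adjusted p = 0.307 and 0.0586). SERPINA3, an inhibitor of cathepsin G and chymase, had 0.171 to 0.702 CPM in p53 KO libraries and 0.208 to 0.801 CPM in p53 WT libraries (edgeR adjusted p = 0.773).

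SERPING1 and SERPINH1 were the serpins called higher in p53 KO cells. SERPING1 encodes the C1 inhibitor, which restrains the first complement component and plasma kallikrein, and whose deficiency causes hereditary angioedema. It had 24.0, 27.3 and 27.5 CPM in p53 KO libraries, against 9.55, 9.50 and 13.7 CPM in p53 WT libraries. The lowest p53 KO library was above the highest p53 WT library. SERPING1 was 2.42-fold higher in p53 KO cells, with a log2 fold change of 1.28 (SE 0.17, edgeR adjusted p = 7.37e-05).

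SERPINH1, or HSP47, does not inhibit proteases but binds folded procollagen in the endoplasmic reticulum, and is induced by heat shock. It had 292, 345 and 361 CPM in p53 KO libraries, against 220, 227 and 205 CPM in p53 WT libraries. SERPINH1 was 1.53-fold higher in p53 KO cells without overlap, with a log2 fold change of 0.61 (SE 0.10, edgeR adjusted p = 0.000428). Its pseudogene SERPINH1P1, which could share reads with it, had 0, 10 and 5 counts in p53 KO libraries and 24, 54 and 25 counts in p53 WT libraries, few beside the 42972 counts of SERPINH1 in p53 KO libraries and 37544 counts in p53 WT libraries.

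The stretch before the start of SERPINH1 is shown because it carries the letters by which heat shock factors are known to bind. It covers the 250 bases before the first of its 2 listed starts, from RefSeq, at chr11:75562003-75562252 on the plus strand of GRCh38.p14. Capitals mark TTCNNGAANNTTC, a heat shock element of 3 units.

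SERPINH1: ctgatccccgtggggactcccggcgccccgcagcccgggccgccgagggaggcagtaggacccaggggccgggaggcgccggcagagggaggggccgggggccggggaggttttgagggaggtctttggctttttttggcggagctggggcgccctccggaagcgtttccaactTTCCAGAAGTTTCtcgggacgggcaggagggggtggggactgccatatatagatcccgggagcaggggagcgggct

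The element lies 76 to 64 bases before the start. On either strand it was found in 1 of 41 listed serpin promoters and in 0.49% of 35116 listed promoters of all genes. The shorter form GAANNTTC, which this element contains, was found in 5 serpin promoters and in 6.77% of all. These 5 belong to SERPINA10, SERPINA11, SERPINB7 and SERPINH1. Of these genes SERPINB7 was called lower and SERPINH1 higher, and SERPINA10 and SERPINA11 were under the filter. No pair of p53 half-sites with up to 13 bases between them was found in the 41 serpin promoters, beside 0.0285% of all promoters, which says only that these letters are not in those windows. In all 9 patterns were searched, and those not yet given were found in 11 serpin promoters and 11.5% of all for TATAAA, 12 and 15786 of the 35116 for GGGCGG, 13 and 41.8% for TGANNNNGC, 2 and 6.63% for a single p53 half-site, and 0 and 1.29% for the CArG box. No promoter was listed for SERPINB10, SERPINB11, SERPINC1, SERPINF1, SERPINF2 and SERPING1.

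The remaining tested members were low and not called. SERPINF1, or PEDF, a secreted factor that blocks vessel growth, had 0.567, 1.68 and 1.70 CPM in p53 KO libraries and 0.966, 0.892 and 0.617 CPM in p53 WT libraries (edgeR adjusted p = 0.437). SERPINF2, the plasma inhibitor of plasmin, had 19 counts over p53 KO libraries and 84 over p53 WT libraries, and its groups did not overlap, but its log2 fold change of -1.82 was not called (SE 0.93, edgeR adjusted p = 0.181). SERPINI1, or neuroserpin, a brain inhibitor of tissue plasminogen activator, had 1.08, 2.59 and 2.11 CPM in p53 KO libraries and 1.11, 1.01 and 1.07 CPM in p53 WT libraries. Its p53 KO libraries 2 and 3 were above every p53 WT library and library 1 was within their range (edgeR adjusted p = 0.175).

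The 17 serpins under the filter had at most 49 counts over the 6 libraries. SERPINA11, SERPINB9, SERPINB11 and SERPINB12 had 0 counts in all of them, where 3 counts would be between 0.0381 and 0.15 CPM depending on the library. These limits hold for counting error alone. The plasma serpins of the coagulation system were barely seen: SERPINC1, or antithrombin, had 18 counts over p53 KO libraries and 8 over p53 WT libraries, SERPIND1, or heparin cofactor II, had 23 over p53 KO libraries and 8 over p53 WT libraries, and SERPINA10, the protein Z-dependent inhibitor, had 7 over p53 KO libraries and 10 over p53 WT libraries. SERPINA9, expressed in germinal centre B cells, had 0 counts over p53 KO libraries and 34, 11 and 4 counts in p53 WT libraries. Against a floor of 3 counts over the p53 KO libraries it was at least 12.9-fold lower there, or at least 7.37-fold lower without p53 WT replicate 1. These bounds take the p53 WT counts as exact and cover counting error in p53 KO libraries alone. The local median around SERPINA9 was -0.99. SERPINA5, the protein C inhibitor, had 0 counts over p53 KO libraries and 0, 19 and 3 counts in p53 WT libraries. These overlapped with the p53 KO libraries, and most of them came from p53 WT replicate 2. SERPINA7, which carries thyroid hormone, had its 16 counts in p53 KO replicate 1 alone. SERPINA4, SERPINA6, SERPINB3, SERPINB4, SERPINB10, SERPINB13 and SERPINI2 had between 3 and 32 counts in all, and the near-identical SERPINB3 and SERPINB4 cannot be told apart with certainty.

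The authors' deposited table lists 29 of the 33 serpins, and 7 have an adjusted p under 0.05. Of the 7 serpins called by edgeR, 6 are among these, SERPINA12 has an adjusted p of 0.0553 in the authors' deposited table, and SERPINA9 is the one added, at 0.00745. The direction of the fold changes in the authors' deposited table was inferred from these counts, so it is no separate check of direction. That table was not made from these 6 columns alone as deposited, since it gives SERPINB9, with 0 counts in all 6, a mean count of 1.07. Of its 35987 genes, 2181 have 0 counts in all 6 or are absent from the count table, which were not told apart.

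Several serpins lie in stretches of a chromosome where other genes moved too. The median log2 fold change of the 50 nearest protein-coding genes was -0.98 around SERPINA1 and -0.54 around the clade B cluster of chromosome 18. With this local median taken off, SERPINB7 had a log2 fold change of -0.63 (edgeR adjusted p = 0.00096). SERPINA1 and SERPINB7 thus kept a call at a smaller size, and SERPINB8 and SERPINA12 lost it, as given above. Around SERPINE2 the local median was -0.024, and its log2 fold change after taking it off was -2.23 (edgeR adjusted p = 1.06e-08). Around SERPING1 and SERPINH1 they were 0.14 and 0.17, and the log2 fold changes became 1.14 (edgeR adjusted p = 0.000267) and 0.45 (edgeR adjusted p = 0.006). Gene order came from GRCh38.p14, while the authors' build was GRCh37.

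**Figure D3:**
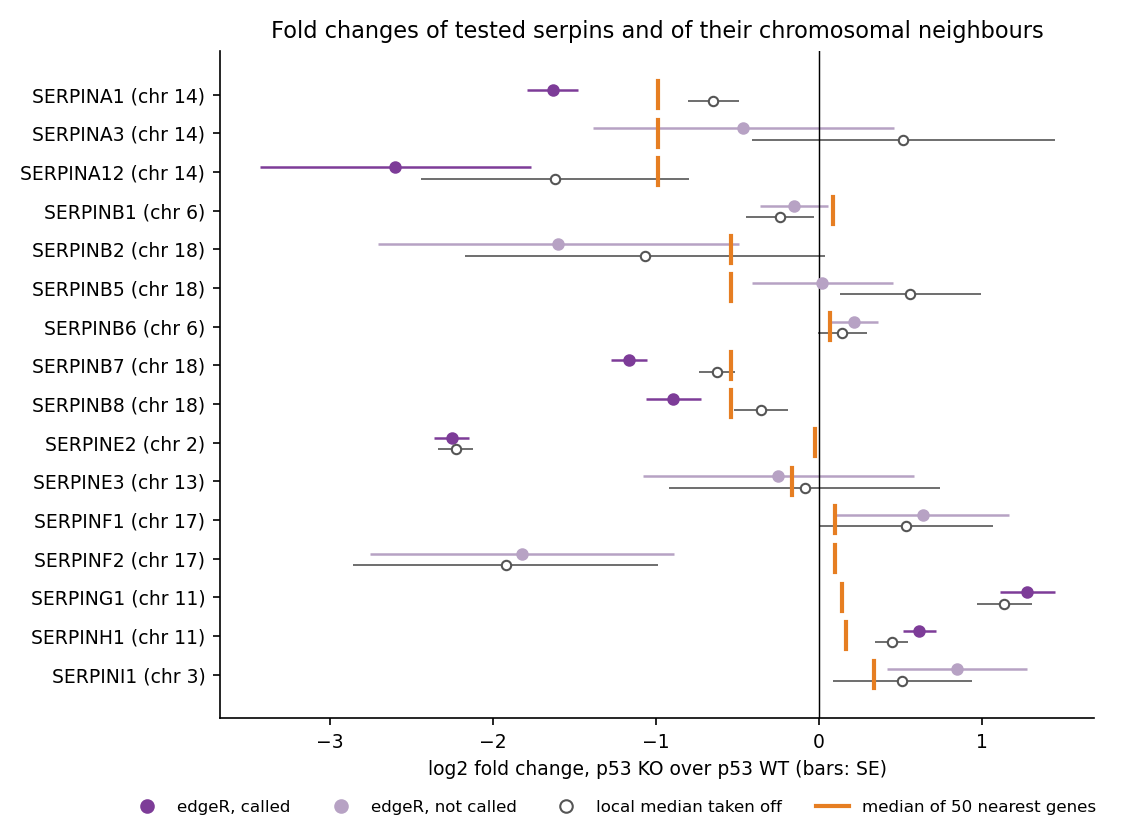
Log2 fold change of p53 KO over p53 WT with its SE for each tested serpin (filled), the same with the local median taken off (open), and the median of the 50 nearest genes (vertical mark). The marks lie far to the left for the serpins of chromosomes 14 and 18 and near 0 for SERPINE2.

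The proteases and cofactors that serpins work with were read from the same fit. The median log2 fold change of the genes tested was -0.018 for plasminogen activation, -0.70 for thrombin generation, -0.17 for the proteases that clade B inhibits, -0.28 for collagen folding, 0.34 for the first complement component and 0.59 for inhibitors that are not serpins, beside 0.0052 over all genes tested. The counts of called genes below stand beside 14.4% of all genes tested called lower and 12.1% called higher. In plasminogen activation, of 11 genes tested 2 were lower and 1 higher in p53 KO cells, a share near that of all genes (26.5% called). PLAU, the urokinase that SERPINE2 can inhibit, had 18.7, 14.7 and 17.1 CPM in p53 KO libraries, against 73.9, 68.1 and 60.5 CPM in p53 WT libraries, a log2 fold change of -2.002 (SE 0.13, edgeR adjusted p = 1.31e-07). PLAU and SERPINE2 were thus both lower. MMP3, a matrix protease that plasmin can activate, had a log2 fold change of -3.45. PLGRKT, a plasminogen receptor, had 0.64, and 0.10 (edgeR adjusted p = 0.602) with the local median taken off. PLAT, the tissue plasminogen activator, averaged 35.7 ± 1.31 CPM in p53 KO cells and 41.2 ± 3.34 CPM in p53 WT cells (SD, n = 3 each) and was not called (edgeR adjusted p = 0.219), and neither were the urokinase receptor PLAUR and the clearance receptor LRP1.

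Thrombin generation, its control and protease-activated receptors had 11 tested genes, of which 4 were lower and 1 higher. Of all genes tested 14.4% were lower and 12.1% higher. TFPI, the inhibitor of tissue factor, had 26.8, 15.7 and 17.7 CPM in p53 KO libraries, against 56.4, 53.5 and 49.1 CPM in p53 WT libraries, a log2 fold change of -1.39 (SE 0.17, edgeR adjusted p = 4.27e-05). The protease-activated receptors F2RL1 and F2R had log2 fold changes of -1.07 and -0.82. PROS1, the cofactor protein S, was also lower (-0.71), but not called with the local median taken off (-0.56, edgeR adjusted p = 0.0731). F3, tissue factor itself, was higher (0.61), a call lost without p53 KO replicate 1, p53 WT replicate 1 or p53 WT replicate 2. F2, prothrombin, averaged 0.0991 CPM in p53 KO cells and 0.243 CPM in p53 WT cells.

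Of 6 tested proteases inside cells or granules that clade B serpins inhibit, 0 were called by edgeR, DESeq2 or limma-voom. With the local median taken off, edgeR called 1 of the 6 lower. Some settings tested more of the list. With no filter 1 of 12 was called lower, without p53 KO replicate 3 it was 1 of 9, and without p53 WT replicate 3 it was 1 of 8. Without p53 WT replicate 2, 1 of 8 was called higher and 0 lower. At the settings used throughout 1, cathepsin B (CTSB), had an unadjusted p under 0.05 by edgeR. CTSB averaged 236 CPM in p53 KO cells and 272 CPM in p53 WT cells, with a log2 fold change of -0.20 (edgeR adjusted p = 0.112), and -0.28 with the local median taken off (edgeR adjusted p = 0.0387). CTSG, ELANE, PRTN3, GZMA, GZMB and GZMM, proteases of granulocytes and cytotoxic lymphocytes, were under the filter and not tested. CTSG and GZMA had 0 counts. ELANE and PRTN3 averaged 0.00814 and 0.0488 CPM in p53 KO libraries, and 0 and 0.101 CPM in p53 WT libraries. GZMB and GZMM averaged 0 CPM in p53 KO libraries, and 0.269 and 0.122 CPM in p53 WT libraries. The caspases CASP1 and CASP10 were under the filter as well. CASP1 averaged 0.498 CPM in p53 KO libraries and 0.0347 CPM in p53 WT libraries. CASP10 averaged 0.136 CPM in p53 KO libraries and 0.177 CPM in p53 WT libraries.

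For SERPINH1, of 16 genes of collagen folding 7 were lower and 2 higher, beside 14.4% lower and 12.1% higher of all genes tested. Without any one p53 WT library 1 was higher and 6 were lower. With the local median taken off 1 was higher and 7 were lower, but not the same 7. There P4HB lost its call (-0.11, edgeR adjusted p = 0.532) and PLOD2 gained one (-0.58, edgeR adjusted p = 0.00426). SERPINH1 itself was higher. P3H1 is a prolyl hydroxylase, listed under its older symbol LEPRE1. It had 43.4, 42.1 and 42.1 CPM in p53 KO libraries, against 71.8, 84.7 and 87.5 CPM in p53 WT libraries. Its log2 fold change was -0.93, and -0.55 with the local median taken off (edgeR adjusted p = 0.00265). FKBP10, a peptidyl-prolyl isomerase that works with SERPINH1 on procollagen, had a log2 fold change of -0.82 (SE 0.10, edgeR adjusted p = 3.14e-05). P3H2, listed as LEPREL1, had 0.87 (SE 0.14, edgeR adjusted p = 0.000445). For SERPING1, of 6 tested genes of the first complement component and its relatives 1 was higher, C1S, a C1 protease that SERPING1 inhibits. C1S had 16.6, 20.8 and 10.5 CPM in p53 KO libraries, against 5.71, 5.08 and 6.29 CPM in p53 WT libraries. Its log2 fold change was 1.503 (SE 0.23, edgeR adjusted p = 0.000249). The other C1 protease, C1R, at 0.41, was not called (edgeR adjusted p = 0.224).

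Of 13 tested protease inhibitors that are not serpins, 2 were lower and 2 higher, near the 26.5% called of all genes tested (4 were higher without p53 KO replicate 2, and 4 by DESeq2). SPOCK1, a matrix proteoglycan (-1.56 on the log2 scale, SE 0.14), and CST3, cystatin C (-0.66, SE 0.13), were lower. PI3, or elafin, an elastase inhibitor, had 7.08, 12.9 and 17.3 CPM in p53 KO libraries, against 2.14, 0.996 and 1.56 CPM in p53 WT libraries, a log2 fold change of 2.97 (SE 0.35, edgeR adjusted p = 2.72e-05). SERPINA1 and PI3, both elastase inhibitors, thus differed in opposite directions, and SERPINB1, which inhibits neutrophil granule proteases, was not called.

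**Figure D4:**
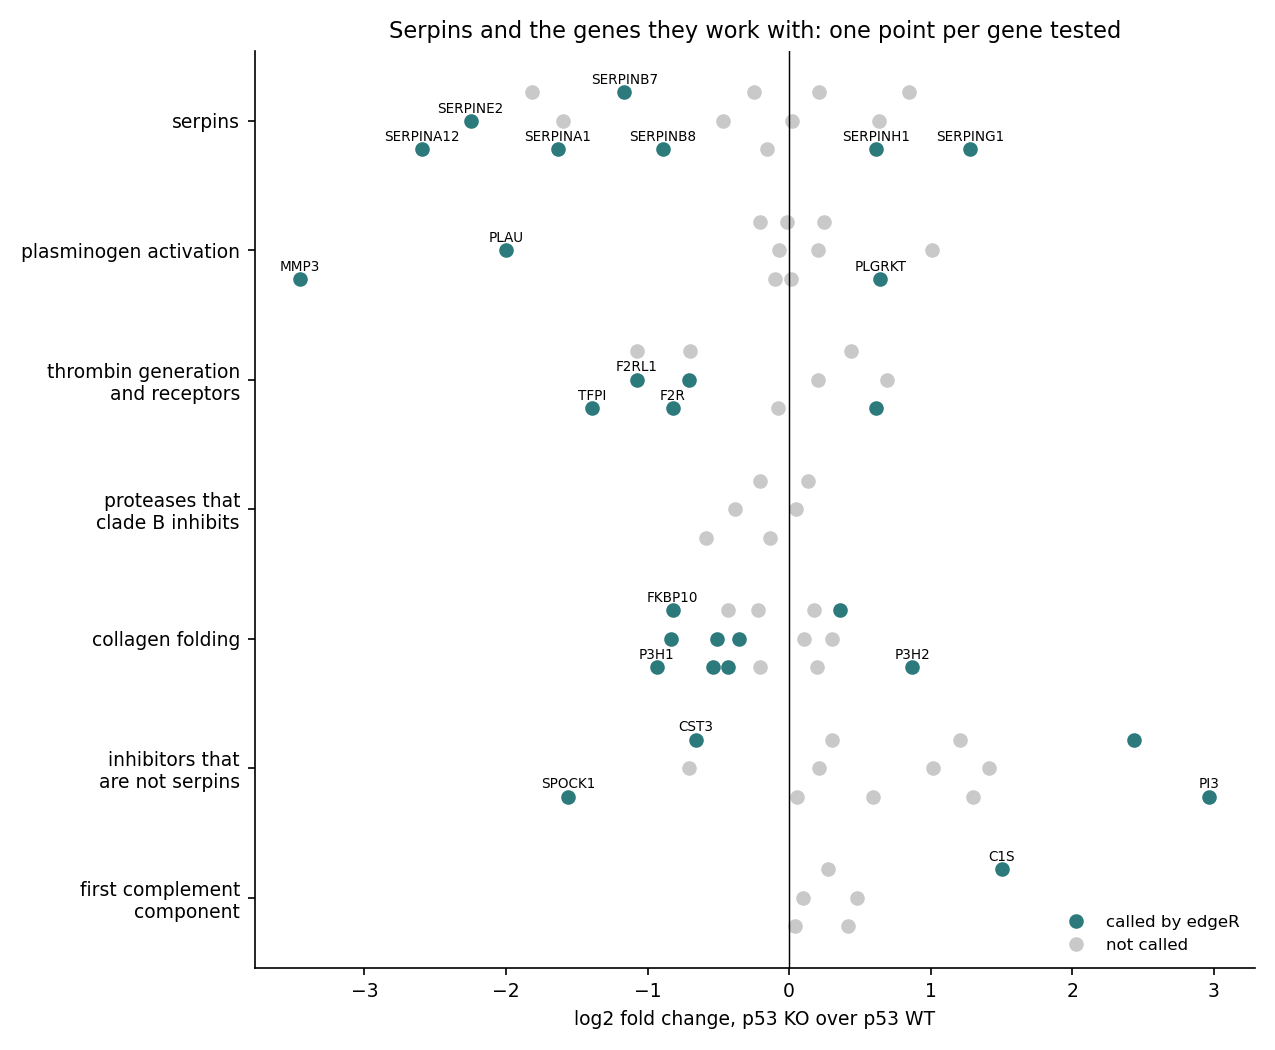
Log2 fold change of p53 KO over p53 WT for each tested serpin and each tested gene of the 6 partner lists, with called genes dark and up to 3 of them named per list. PLAU and MMP3 lie left of 0 with SERPINE2, C1S lies right of 0 with SERPING1, and most called collagen folding genes lie left of 0 while SERPINH1 lies right of it.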

How the data were processed

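PolyA-selected, stranded RNA libraries were made from DIvA cells, 3 of p53 KO cells and 3 of p53 WT cells. The deposited count table holds raw read counts per gene. The tools HISAT2 2.1.0, fastp 0.21.0 and DESeq2 1.3.6 and the build GRCh37/hg19 are named in the submitters' processing notes. For the counting tool, annotation and strand setting, the sources used here give nothing, and near-identical or overlapping genes may share counts. The deposited table of the authors' own comparison gives log2 fold changes, their test statistic as a score, a mean count signal and p-values with adjusted p-values. The sign of its fold change is opposite to that of its statistic in all 35987 rows, and from the counts it was inferred to run p53 WT over p53 KO.

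Genes were filtered with filterByExpr (about 0.185 CPM in at least 3 libraries), scaled by TMM and tested with edgeR 4.0.16 (quasi-likelihood, robust) in R 4.3.3, with Benjamini-Hochberg adjustment over 22352 genes at 0.05. CPM values are counts scaled to the TMM-adjusted library total with the cpm function of edgeR. The local median was taken over the 50 nearest protein-coding genes that averaged 2 CPM or more, in RefSeq GRCh38.p14 order, and subtracted as an offset. Motifs were searched on both strands of RefSeq promoters, 250 bases before to 50 after each start. Alternatives used DESeq2 1.42.0, limma-voom (limma 3.58.1), other scalings, filters and thresholds, and left out each library.

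One of the 34 genes, and some other values, are not reported here. The other serpins past the filter are named, and of each partner list up to 3 called genes with the smallest adjusted p. PLAT, PLAUR, LRP1, F2, F3, PROS1, C1R, CTSB, P4HB, PLOD2, the granule proteases named and the marker genes named were chosen after their values were seen. So were CASP1 and CASP10. The members and lists were chosen with earlier results of these data known. Replicates differed by more than sampling noise (lowest chi-square per degree of freedom 16.7).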

Additional observations from a re-analysis of the deposited data

How the results depend on the processing

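Genes called by edgeR numbered 5924 in all, 3758 at an adjusted p under 0.01, and 4160 to 6059 when 1 library was left out. Serpins called lower were then 4 to 5, and serpins called higher 2. With the local median taken off, 3 serpins were called lower. SERPINE2, SERPINA1, SERPINB7, SERPING1 and SERPINH1 were called in all 16 alternatives, with log2 fold changes of -2.30 to -2.20, -1.72 to -0.65, -1.23 to -0.63, 1.14 to 1.45 and 0.45 to 0.70. SERPINB8 lost its call only with the local median taken off, and SERPINA12 kept its call in 7 of the 15 alternatives that tested it. With no filter SERPINA9 was called as well. Directions turned for 3 serpins that no setting called: SERPINA3 had a log2 fold change of 0.52 with the local median taken off and -1.34 to 0.24 with 1 library left out (highest without p53 WT replicate 1). SERPINB5 had -0.24 to 0.27 with 1 library left out, and was below 0 without p53 KO replicate 1, p53 KO replicate 3 or p53 WT replicate 2. SERPINE3 had 0.11 by limma-voom and -0.71 to 0.24 with 1 library left out (highest without p53 WT replicate 3). The cause was not tested.

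Same-numbered libraries did not deviate together (correlations 0.0171, 0.0343 and -0.0291), but so few libraries cannot show whether they shared a batch. In both groups total counts were highest in replicate 1 and lowest in replicate 3. With the replicate number as a block, 5159 genes, 4 serpins lower and 2 higher were called, and SERPINA12 was the serpin lost. Depth limits the 17 serpins under the filter and those under 1 CPM.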
